A study of Mus musculus with 12 samples.

Results

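The nucleolar genes Ncl, Npm1, Nop56, Nop58, Fbl, Dkc1 and Nolc1 were followed in mRNA and in ribosome footprints. They were taken by name, with earlier results of these data known, so their contrasts with all genes are descriptive. All 7 of 7 were found among the 9621 listed genes after Ensembl identifiers had been matched to mouse symbols. RAW264 cells are a mouse macrophage line. Basal cells had no treatment. LPS cells were given lipopolysaccharide (100 ng/ml, 30 min), an outer-membrane glycolipid of bacteria that macrophages sense through Toll-like receptors. LPS+DEX cells were given LPS and 10 µM of the glucocorticoid dexamethasone for 30 min. All cells, basal ones included, were held in cycloheximide (100 µg/ml) before extraction, which stalls elongating ribosomes on their mRNA. Each treatment has 2 mRNA libraries and 2 footprint libraries, described by the submitters as independent biological replicates, so there are 12 libraries and n = 2 in every group.

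The nucleolus is where ribosomal RNA is transcribed, chemically modified and packed with ribosomal proteins. Fbl (fibrillarin) is the methyltransferase of the box C/D small nucleolar ribonucleoproteins (snoRNPs), which add 2′-O-methyl groups to ribosomal RNA, and Nop56 and Nop58 are the paired scaffold proteins of the same particles. Dkc1 (dyskerin) is the pseudouridine synthase of the box H/ACA snoRNPs, and Nolc1 (Nopp140) is a phosphoprotein that binds both kinds of particle. Ncl (nucleolin) and Npm1 (nucleophosmin) are abundant RNA-binding phosphoproteins that act as histone chaperones and in ribosome assembly. Npm1 mRNA starts with a terminal oligopyrimidine tract, the element that ties ribosomal protein mRNAs to growth signalling.

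Upstream sequence from RefSeq (GRCm38.p6) was matched for 5 of the 7 members (not Fbl and Npm1). The 150 bases before each annotated start are shown 5′ to 3′ on the gene's strand, since they let genes that moved together and apart be set side by side, with the GC box GGGCGG or its reverse complement CCGCCC in capitals. They are Ncl (chr1:86359456-86359605, minus strand), Nop58 (chr1:59684856-59685005, plus), Dkc1 (chrX:75095704-75095853, plus), Nop56 (chr2:130274262-130274411, plus) and Nolc1 (chr19:46075697-46075846, plus).
Ncl: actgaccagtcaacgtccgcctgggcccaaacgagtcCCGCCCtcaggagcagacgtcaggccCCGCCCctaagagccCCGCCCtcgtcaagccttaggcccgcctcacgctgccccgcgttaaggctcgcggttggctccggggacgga
Nop58: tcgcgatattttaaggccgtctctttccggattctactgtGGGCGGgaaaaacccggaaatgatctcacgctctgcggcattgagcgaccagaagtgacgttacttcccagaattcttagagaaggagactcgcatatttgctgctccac
Dkc1: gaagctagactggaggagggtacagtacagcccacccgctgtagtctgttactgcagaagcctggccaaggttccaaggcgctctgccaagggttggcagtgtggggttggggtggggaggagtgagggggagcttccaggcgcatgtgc
Nop56: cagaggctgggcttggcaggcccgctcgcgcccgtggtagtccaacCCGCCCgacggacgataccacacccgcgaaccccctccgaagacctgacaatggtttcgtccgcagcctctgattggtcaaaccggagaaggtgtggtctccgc
Nolc1: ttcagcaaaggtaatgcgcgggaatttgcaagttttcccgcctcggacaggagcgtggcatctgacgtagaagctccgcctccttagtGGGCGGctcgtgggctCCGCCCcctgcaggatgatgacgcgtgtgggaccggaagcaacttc
GGGCGG was found on either strand in 4 of the 5 windows, 3 times in Ncl, 2 times in Nolc1 and 1 time each in Nop58 and Nop56, against 28.6% of 32851 windows of the same length and 51.4% of 146 windows of the wider list described below. The ETS-type motif CCGGAAG was found in 1 of the 5 (Nolc1), against 5.52% of all windows and 28.8% of the wider list. The E-box CACGTG was found in 0 of the 5, against 4.3% of all windows. No match of one motif overlapped another.

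The libraries held 821946 to 2529666 reads, the LPS footprint libraries being the shallowest at 829415 and 821946. A member had between 139 reads (Dkc1 mRNA with LPS+DEX, replicate 1) and 9985 reads (Ncl footprints with LPS+DEX, replicate 1), so all 7 passed the filter on low values. The 13 listed macrophage markers of 14 were above 3 reads in every library. Replicate 1 of basal mRNA differed from the rest, with Spearman correlations across genes of 0.781 to 0.831 with the other mRNA libraries. In that library the 2 listed epithelial markers of 8, Krt7 and Ddr1, summed to 2032 CPM, against 2 to 7 CPM in the other mRNA libraries and 18 to 75 CPM in footprints. The part of this in the members' values was not tested. Values without that library are given for the members' basal ratios, their mRNA changes after LPS, and wherever leaving it out changed a call.

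Values are CPM, reads scaled to the same library total. They carry no scaling by gene length, so levels are compared within a gene and not between genes. Translational efficiency (TE) is the log2 ratio of footprints to mRNA. Differences are log2 differences of CPM + 1 from limma with a standard error (SE), and a gene passed at a Benjamini-Hochberg adjusted p under 0.05 over all genes tested in that comparison. Rescaling the libraries by the median of ratios instead of total reads moved the median mRNA change over all genes by -0.26 for LPS against basal and by -0.28 for LPS+DEX against basal. It moved the matching TE changes by 0.29 and 0.33 and the basal footprint-over-mRNA values by -0.27. In these bulk libraries, fewer cells with an mRNA and less of it per cell cannot be told apart.

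Footprints were first set against mRNA of the same treatment, which asks how densely ribosomes sit on each mRNA. In basal cells Ncl, Npm1, Nop58, Dkc1 and Nolc1 had more footprints than mRNA, and Nop56 had fewer. Of the 7 members 6 passed (5 higher and 1 lower), against 50.7% of all 9412 genes tested (33.4% higher and 17.3% lower). The members' median log2 ratio was 0.97, against 0.21 over all genes.

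Among the box C/D proteins the ratio differed widely. Nop56 mRNA measured 579 and 659 CPM in the basal libraries and its footprints 400 and 424 CPM, a footprint-over-mRNA log2 ratio of -0.58 ± 0.11 (SE, adjusted p = 0.000735). Nop58 mRNA measured 178 and 244 CPM and its footprints 335 and 322 CPM, a log2 ratio of 0.65 ± 0.21 (adjusted p = 0.0193). Thus Nop58 footprints lay above both of its mRNA values and Nop56 footprints lay below both of its own. Without mRNA basal replicate 1 the Nop58 ratio was 0.43 and did not pass (adjusted p = 0.135). It also failed with median-of-ratios scaling (0.38, adjusted p = 0.142), without footprint basal replicate 1 (0.62, adjusted p = 0.0853) and without footprint basal replicate 2 (0.68, adjusted p = 0.0622). Fbl mRNA measured 315 and 354 CPM and its footprints 288 and 258 CPM, so the 2 assays did not overlap, but the log2 ratio of -0.29 ± 0.12 did not pass (adjusted p = 0.0514). It passed without mRNA basal replicate 1 (-0.38, adjusted p = 0.0499) and with median-of-ratios scaling (-0.57, adjusted p = 0.000962), and just so without either mRNA LPS+DEX library (adjusted p = 0.045 in both).

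The other 4 members all had an excess of footprints in basal cells. Dkc1 mRNA measured 111 and 113 CPM and its footprints 223 and 240 CPM, a log2 ratio of 1.04 ± 0.21 (adjusted p = 0.00129). Nolc1 mRNA measured 300 and 323 CPM and its footprints 607 and 612 CPM, with the replicates of each assay nearly equal (log2 ratio 0.97 ± 0.1, adjusted p = 5.02e-06). Ncl had the highest ratio of the 7: its mRNA measured 1340 and 1450 CPM and its footprints 5380 and 4000 CPM, a log2 ratio of 1.73 ± 0.19 (adjusted p = 7.56e-06). This placed Ncl at the 92.5th percentile of the genes tested. Npm1 mRNA measured 1490 and 1920 CPM and its footprints 3550 and 3300 CPM, a log2 ratio of 1.02 ± 0.21 (adjusted p = 0.00114). Npm1 has processed pseudogenes of near-identical sequence, and the handling of reads with several matches is not stated in the labels, so its levels are uncertain. With mRNA basal replicate 1 left out, the log2 ratios were 1.68 for Ncl, 0.83 for Npm1, 1.03 for Dkc1, 0.92 for Nolc1 and -0.68 for Nop56, and all 5 still passed.

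**Figure D1:**
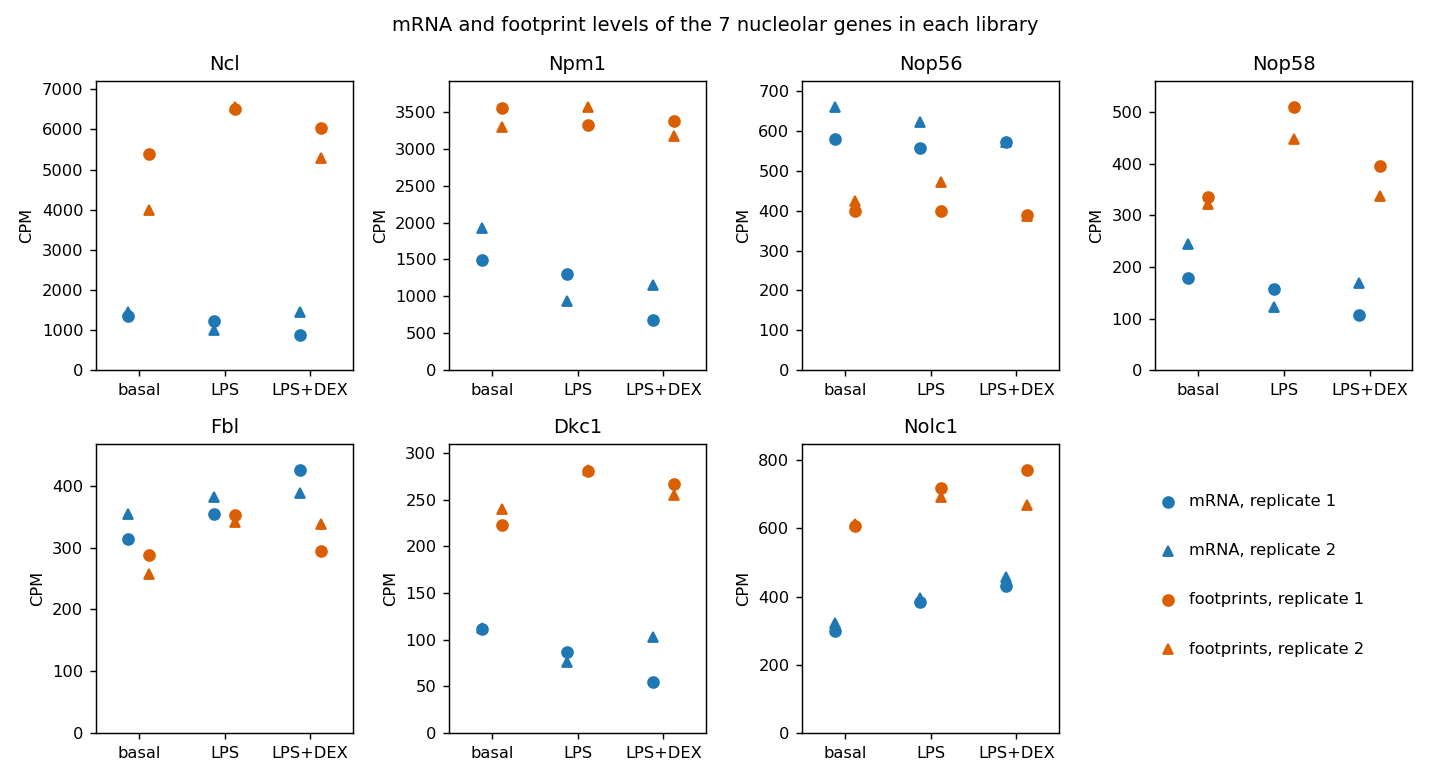
CPM (vertical axes, from 0, a separate scale for each gene) of the 7 genes in basal, LPS and LPS+DEX cells, with 1 point per library: blue for mRNA, orange for footprints, circles for replicate 1 and triangles for replicate 2. Ncl footprints lie between 4000 and 6550 CPM over mRNA between 887 and 1450 CPM, whereas for Nop56 the footprints lie below the mRNA in every treatment.

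After LPS the order of the ratios was Dkc1 and Nop58 below Ncl, with Npm1, Nolc1, Fbl and Nop56 following, and 6 of the 7 members passed (5 higher and 1 lower), against 51.9% of genes tested (24.8% higher and 27.1% lower). Ncl reached a log2 ratio of 2.56 ± 0.19 (adjusted p = 2.97e-07), with a ratio of group mean CPM of 5.89. Dkc1 (1.78 ± 0.21), Nop58 (1.77 ± 0.21) and Npm1 (1.63 ± 0.21) lay within 1 SE of one another. Nolc1 measured 0.85 ± 0.1, below those 3, and Nop56 measured -0.44 ± 0.11 (adjusted p = 0.00527). The Nop56 difference did not pass without mRNA LPS replicate 2 (-0.36, adjusted p = 0.051) or footprint LPS replicate 1 (-0.32, adjusted p = 0.0696). Fbl measured -0.09 ± 0.12 and did not pass (adjusted p = 0.552, 95% interval -0.34 to 0.17). With LPS+DEX all 7 passed, against 51% of genes tested (23.8% higher and 27.2% lower): 5 were higher in footprints, from Nolc1 at 0.69 ± 0.1 to Ncl at 2.32 ± 0.19, while Nop56 (-0.56 ± 0.11) and Fbl (-0.37 ± 0.12, adjusted p = 0.0188) were lower. Fbl did not pass there without mRNA LPS+DEX replicate 1 (-0.3, adjusted p = 0.105) or footprint LPS+DEX replicate 1 (-0.27, adjusted p = 0.166).

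**Figure D2:**
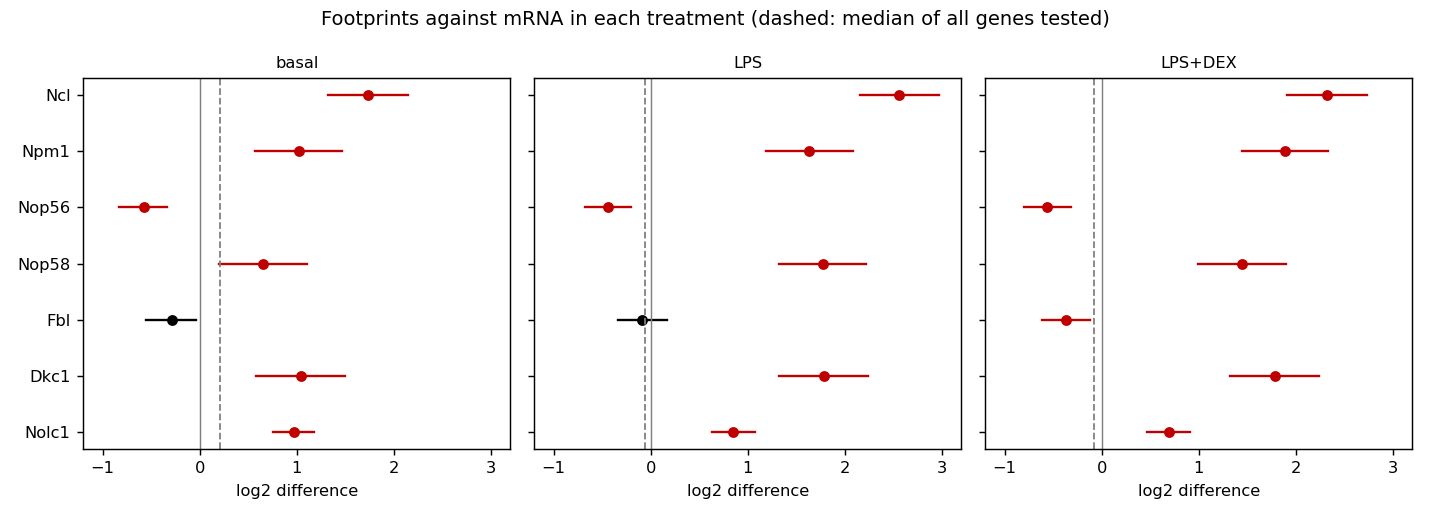
Log2 of footprints over mRNA (horizontal axes) for the 7 genes in each treatment, as limma estimates with 95% intervals, red where the gene passed at an adjusted p under 0.05, with the median of all genes tested as a dashed line. Ncl lies at 1.73, 2.56 and 2.32 and Nop56 at -0.58, -0.44 and -0.56 in basal, LPS and LPS+DEX cells.

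Comparing footprints after LPS with basal footprints asks which of these mRNAs gained ribosomes within 30 min. Footprints of Ncl and Nop58 rose, 2 of 7 members, against 7.62% of 8847 genes that passed (3.3% higher and 4.32% lower). All 7 estimates were above 0, with a median of 0.28, against -0.07 over all genes, but Npm1 (0.01) and Nop56 (0.08) lay near 0. Without footprint LPS replicate 2 both measured -0.04, and without footprint basal replicate 2 Npm1 measured -0.05. The share of all genes above 0 was not worked out. Nop58 footprints measured 335 and 322 CPM in basal cells and 509 and 447 CPM after LPS, a log2 change of 0.54 ± 0.11 (adjusted p = 0.00744). Ncl footprints measured 5380 and 4000 CPM in basal cells and 6500 and 6550 CPM after LPS, a change of 0.49 ± 0.11 (adjusted p = 0.0142). In both genes the LPS libraries lay above the basal ones without overlap, which was not set against the share of all genes. The basal Ncl libraries were spread more widely than the treated ones. The size of the Ncl change hung on the basal libraries, being 0.71 without replicate 1 and 0.28 without replicate 2. The Ncl call rested on both LPS libraries and the Nop58 call on LPS replicate 1. Without LPS replicate 2 the Nop58 change was 0.63. Ncl did not pass without LPS replicate 1 (0.5, adjusted p = 0.0941) or replicate 2 (0.49, adjusted p = 0.0991), and Nop58 did not pass without replicate 1 (0.44, adjusted p = 0.0839). Testing every listed gene without a filter also ended the Ncl call (adjusted p = 0.123).

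Footprints of Fbl, Dkc1 and Nolc1 did not pass. Their LPS values lay above both basal values, which was not set against the share of all genes and is not read as a rise. Fbl footprints were 288 and 258 CPM in basal cells and 353 and 341 CPM after LPS, a difference of 0.35 ± 0.11 (adjusted p = 0.0624). With median-of-ratios scaling Fbl measured 0.41 and passed (adjusted p = 0.0316), as it did without footprint basal replicate 1 (0.43, adjusted p = 0.0221). Dkc1 footprints were 223 and 240 CPM and then 281 and 282 CPM, a difference of 0.28 ± 0.1 (adjusted p = 0.109). Nolc1 footprints were 607 and 612 CPM and then 719 and 691 CPM, a difference of 0.21 ± 0.09 (adjusted p = 0.184). The ranges of the remaining 2 genes overlapped between basal and LPS cells. Npm1 footprints were 3550 and 3300 CPM and then 3320 and 3560 CPM (0.01 ± 0.07, 95% interval -0.15 to 0.16), and those of Nop56 were 400 and 424 CPM and then 400 and 471 CPM (0.08 ± 0.1, 95% interval -0.14 to 0.29).

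In mRNA none of the 7 members passed between LPS and basal cells, against 10.7% of 9277 genes tested with limma (9.03% higher and 1.68% lower). At an unadjusted p under 0.05 there was 1 member, against 2848 of the 9277 genes. limma-voom on recovered reads also called 0 members, against 464 of all genes. The members' median was -0.34, against 0.26 over all genes. Npm1 mRNA went from 1490 and 1920 CPM to 1300 and 944 CPM (-0.61 ± 0.27, adjusted p = 0.171), and Nop58 mRNA from 178 and 244 CPM to 158 and 122 CPM (-0.58 ± 0.26, adjusted p = 0.172). Both genes were lower in each LPS library than in either basal library. Without mRNA basal replicate 1 they measured -0.79 (adjusted p = 0.0586) and -0.81 (adjusted p = 0.057). Dkc1 mRNA was 111 and 113 CPM and then 86.3 and 76.4 CPM (-0.46 ± 0.27, adjusted p = 0.292), and Ncl mRNA 1340 and 1450 CPM and then 1220 and 994 CPM (-0.34 ± 0.22, adjusted p = 0.331). These groups did not overlap either. For none of these genes was this set against the share of all genes, and it is not read as a fall.

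Nolc1, Fbl and Nop56 mRNAs had other values. Nolc1 mRNA was 300 and 323 CPM in basal cells and 385 and 396 CPM after LPS (0.33 ± 0.11, adjusted p = 0.1), the member with the unadjusted p under 0.05. Fbl mRNA was 315 and 354 CPM and then 355 and 383 CPM (0.14 ± 0.12, adjusted p = 0.464), and with median-of-ratios scaling its sign turned (-0.12). Nop56 mRNA was 579 and 659 CPM and then 556 and 622 CPM, so its groups overlapped (-0.07 ± 0.12, 95% interval -0.35 to 0.21). Leaving out mRNA basal replicate 1 gave 0.27 for Nolc1, 0.06 for Fbl, -0.16 for Nop56, -0.47 for Dkc1 and -0.39 for Ncl, and none passed. The 95% intervals of Npm1 (-1.23 to 0.02) and Nop56 show that the precision differed between members.

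The change in TE compares how far footprints and mRNA each moved after LPS. TE of Nop58 rose by 1.12 ± 0.3 (log2, adjusted p = 0.0225), with the ratio of group mean CPM going from 1.55 to 3.41. It was the 1 member of 7 that passed, against 16.6% of 9412 genes that passed (3.08% higher and 13.6% lower). The members' median was 0.61, against -0.34 over all genes. Ncl measured 0.83 ± 0.27 (adjusted p = 0.0503), Dkc1 0.74 ± 0.3 (adjusted p = 0.107) and Npm1 0.61 ± 0.29 (adjusted p = 0.162). Nop56 (0.15 ± 0.16), Fbl (0.21 ± 0.17) and Nolc1 (-0.12 ± 0.14) had 95% intervals that held 0. In Nop58 the footprint value (0.54) and the mRNA value (-0.58, which did not pass) made up about equal parts of the TE change when scaled by total reads. With median-of-ratios scaling they measured 0.6 and -0.85, so the mRNA part was the larger, and it did not pass there either.

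Which members passed the TE test depended on the scaling and on single libraries. With median-of-ratios scaling 3 passed, Nop58 together with Ncl (1.13, adjusted p = 0.0193) and Dkc1 (1.04, adjusted p = 0.0423). Nolc1 turned to 0.18 in that scaling. Nop58 itself did not pass without mRNA LPS replicate 2 (0.93, adjusted p = 0.0997), footprint basal replicate 1 (1.15, adjusted p = 0.0536), footprint basal replicate 2 (1.09, adjusted p = 0.0709) or footprint LPS replicate 1 (1.03, adjusted p = 0.0776). Without mRNA basal replicate 1 Nop58 measured 1.35 (adjusted p = 0.00679) and Ncl 0.89 (adjusted p = 0.0464), and both passed. Ncl passed also with log2(CPM + 2) (adjusted p = 0.0499), without mRNA LPS replicate 1 (0.98), without footprint basal replicate 1 (1.04), and, like Dkc1, without either mRNA LPS+DEX library.

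**Figure D3:**
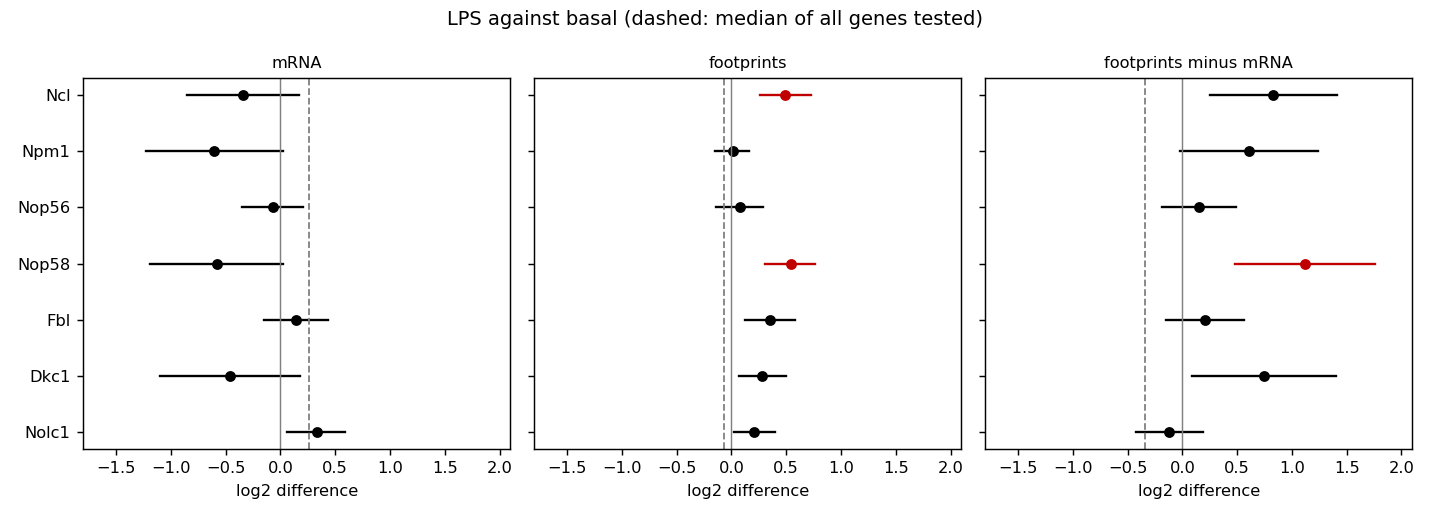
Log2 differences of LPS against basal cells (horizontal axes) in mRNA, in footprints and in footprints minus mRNA (the TE change) for the 7 genes, as limma estimates with 95% intervals, red where adjusted p was under 0.05. Ncl (0.49) and Nop58 (0.54) passed in footprints and Nop58 (1.12) in TE, and the dashed lines mark the medians of all genes at 0.26, -0.07 and -0.34.

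Adding dexamethasone to LPS asks what the glucocorticoid changes under the same stimulus. Nop58 footprints fell, from 509 and 447 CPM with LPS to 396 and 338 CPM with LPS+DEX (-0.38 ± 0.11, adjusted p = 0.0469), the 1 member of 7 that passed, against 6.69% of genes that passed (3.55% lower and 3.14% higher). The LPS+DEX libraries lay below both LPS libraries and above both basal ones. The rise over basal cells and this fall share the same LPS libraries, the shallowest of the series, so they are not independent results. The Nop58 call was lost without any 1 of the 4 libraries compared, at -0.29 (adjusted p = 0.26) and -0.47 (adjusted p = 0.0713) without LPS replicates 1 and 2, and at -0.49 (adjusted p = 0.0949) and -0.27 (adjusted p = 0.445) without LPS+DEX replicates 1 and 2. It was also lost when every listed gene was tested (adjusted p = 0.113). Ncl footprints went from 6500 and 6550 CPM to 6040 and 5280 CPM (-0.21 ± 0.11, adjusted p = 0.297). Ncl passed without footprint basal replicate 1 (-0.21, adjusted p = 0.00731) or replicate 2 (-0.21, adjusted p = 0.0103). The other 5 members lay between -0.16 (Nop56) and 0.03 (Nolc1). Nolc1 footprints with LPS+DEX, at 771 and 669 CPM, overlapped the LPS values, while Fbl footprints, at 294 and 338 CPM, were below them and did not pass (-0.14 ± 0.11).

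Neither mRNA nor TE of any member passed between LPS+DEX and LPS. In mRNA limma called 0 of 7 members, and 0 had an unadjusted p under 0.05, against 0% of all genes called (0 of 9277, with 183 at an unadjusted p under 0.05). limma-voom likewise called 0 genes. Differences ran from -0.32 ± 0.27 for Npm1 to 0.19 ± 0.11 for Nolc1. Nolc1 mRNA measured 385 and 396 CPM with LPS and 432 and 457 CPM with LPS+DEX, which did not overlap and did not pass (adjusted p = 1). In TE 0 of 7 members passed, against 0.0531% of genes called by limma (0.0106% higher and 0.0425% lower, 5 of 9412) and 0 by limma-voom. At an unadjusted p under 0.05 there were 0 members, against 597 of the 9412 genes. For Dkc1 the TE difference was 0 ± 0.3, with a 95% interval of -0.66 to 0.65, so a change of up to about that size in either direction is not excluded by these libraries.

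Comparing LPS+DEX with basal cells uses the basal libraries of the LPS comparison and the LPS+DEX libraries of the comparison with LPS. Here 2 members passed in mRNA in opposite directions. Npm1 mRNA fell from 1490 and 1920 CPM to 676 and 1160 CPM (-0.93 ± 0.27, adjusted p = 0.0436), and Nolc1 mRNA rose from 300 and 323 CPM to 432 and 457 CPM (0.51 ± 0.11, adjusted p = 0.019). The background was 22.7% of genes that passed (18.5% higher and 4.23% lower). With median-of-ratios scaling the members that passed were all lower: Npm1, Nop58 (-0.93, adjusted p = 0.0414) and Nop56 (-0.4, adjusted p = 0.0491), while Nolc1 measured 0.22 and did not pass (adjusted p = 0.199). Nop58 mRNA was 106 and 168 CPM with LPS+DEX (-0.64 ± 0.26, adjusted p = 0.114), and Dkc1 mRNA 54.9 and 103 CPM (-0.57 ± 0.27, adjusted p = 0.171). Fbl mRNA, at 426 and 389 CPM, was above both basal values (0.28 ± 0.12, adjusted p = 0.136), and with median-of-ratios scaling its sign turned (-0.01). Ncl mRNA, at 887 and 1440 CPM, overlapped the basal range (-0.3 ± 0.22, adjusted p = 0.351). Nop56 mRNA, at 572 and 572 CPM, was just under it (-0.11 ± 0.12).

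These calls were not firm. Npm1 lost its call without mRNA LPS+DEX replicate 1 (-0.55, adjusted p = 0.2), without mRNA LPS replicate 1 (adjusted p = 0.0661) or replicate 2 (adjusted p = 0.0648), and with no filter (adjusted p = 0.0563). Nolc1 lost its call without mRNA basal replicate 1 (0.46, adjusted p = 0.0791), without mRNA LPS+DEX replicate 1 (0.55, adjusted p = 0.08) and without replicate 2 of that group (0.47, adjusted p = 0.0721). Without mRNA basal replicate 1 Npm1 (-1.12, adjusted p = 0.00638) and Nop58 (-0.86, adjusted p = 0.0256) passed, both lower. Dkc1 passed without mRNA LPS+DEX replicate 2 (-1.02, adjusted p = 0.0359).

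No member passed in footprints between LPS+DEX and basal cells, with limma at 0 of 7 against 4.63% of genes called (1.77% higher and 2.86% lower). At an unadjusted p under 0.05 there were 2 members, against 1542 of 8847 genes. limma-voom called 0 members, against 619 of all genes. Estimates ran from -0.09 ± 0.1 for Nop56 to 0.28 ± 0.11 for Ncl (adjusted p = 0.181). Without footprint basal replicate 1 Ncl measured 0.5 and passed (adjusted p = 3.36e-06). In TE 0 of 7 passed, against 14.9% of genes called (2.68% higher and 12.2% lower). At an unadjusted p under 0.05 there were 4 members, against 2877 of 9412 genes. limma-voom called 0 members, against 1322 of all genes. Npm1 measured 0.87 ± 0.29 (adjusted p = 0.0621), Nop58 0.79 ± 0.3 (adjusted p = 0.0884), Dkc1 0.74 ± 0.3 (adjusted p = 0.117) and Ncl 0.58 ± 0.27 (adjusted p = 0.161). With median-of-ratios scaling Npm1 (1.2, adjusted p = 0.0211), Nop58 (1.13, adjusted p = 0.0288) and Dkc1 (1.07, adjusted p = 0.0418) passed. Without mRNA basal replicate 1 Npm1 (1.05, adjusted p = 0.0263) and Nop58 (1.02, adjusted p = 0.0311) passed. Without mRNA LPS+DEX replicate 2 Npm1 (1.25), Dkc1 (1.19), Nop58 (1.12) and Ncl (0.93) passed.

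**Figure D4:**
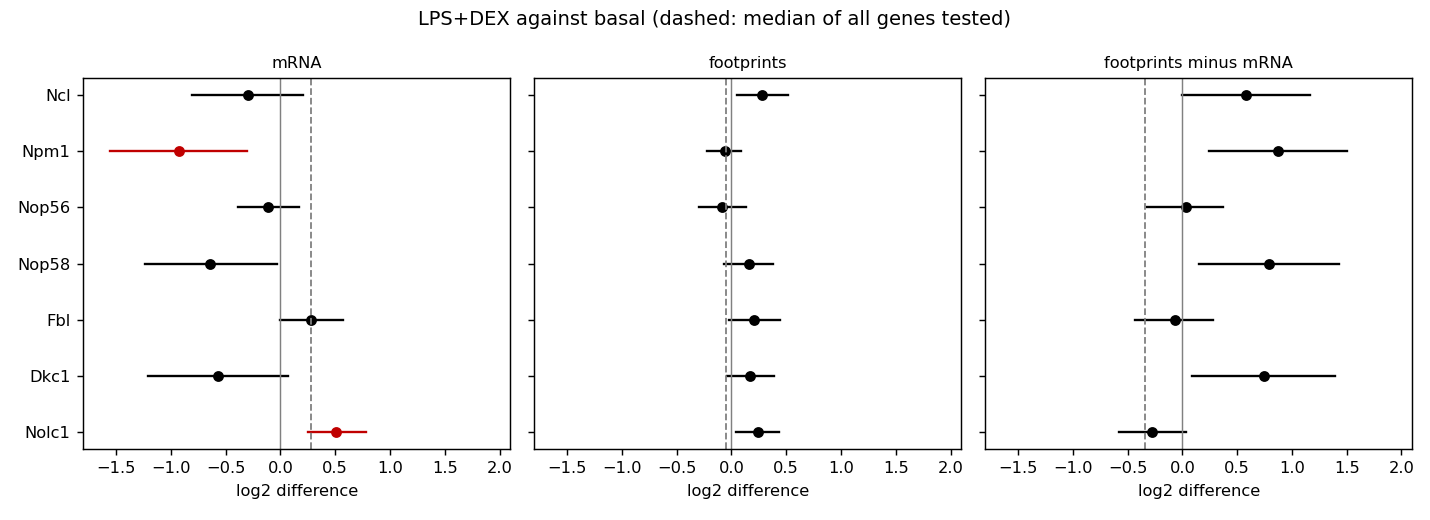
Log2 differences of LPS+DEX against basal cells (horizontal axes) in mRNA, in footprints and in footprints minus mRNA for the 7 genes, as limma estimates with 95% intervals, red where adjusted p was under 0.05. Npm1 (-0.93) and Nolc1 (0.51) passed in mRNA and no member passed in the other panels, with the median of all genes dashed at 0.28, -0.05 and -0.34.

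In LPS+DEX mRNA the members fell into sets by how far the 2 libraries lay apart, a split seen in the values and not fixed beforehand. Basal mRNA did not show these sets. There Dkc1 (1.02 times) and Ncl (1.08 times) lay closer together than Nop56 (1.14 times) and Fbl (1.12 times). Nolc1 was at 1.07 times, and Npm1 (1.29 times) and Nop58 (1.37 times) lay furthest apart. With LPS+DEX the mRNA of Dkc1 was 1.86 times higher in replicate 2 than in replicate 1, that of Npm1 1.71 times, of Ncl 1.63 times and of Nop58 1.58 times, against a median of 1.02 times over the genes tested. Of the upstream windows shown above, those of Ncl, Nop58, Nop56 and Nolc1 hold a GC box and that of Dkc1 holds none, so both sets have it. These values lay at the 96.6th, 94.2nd, 92.2nd and 90.7th percentiles of genes. Nop56 (1 time), Nolc1 (1.06 times) and Fbl (0.912 times) were nearly equal in the same libraries. With LPS the first 4 were lower in replicate 2, from Npm1 at 0.727 times to Dkc1 at 0.887 times, while Nop56, Fbl and Nolc1 were at 1.12, 1.08 and 1.03 times. In footprints with LPS+DEX the 4 genes differed by 0.854 to 0.957 times between replicates. Nolc1 (0.867 times) and Fbl (1.15 times) differed about as much there, and Nop56 (0.991 times) less. The SE of their mRNA and TE changes was 0.22 to 0.3, against 0.11 to 0.17 for the other 3. Each SE pools the spread within all groups fitted, so these mRNA differences are a part of it. For TE it also takes in footprints, such as those of Ncl in basal cells (0.744 times). The source of the spread was not tested.

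**Figure D5:**
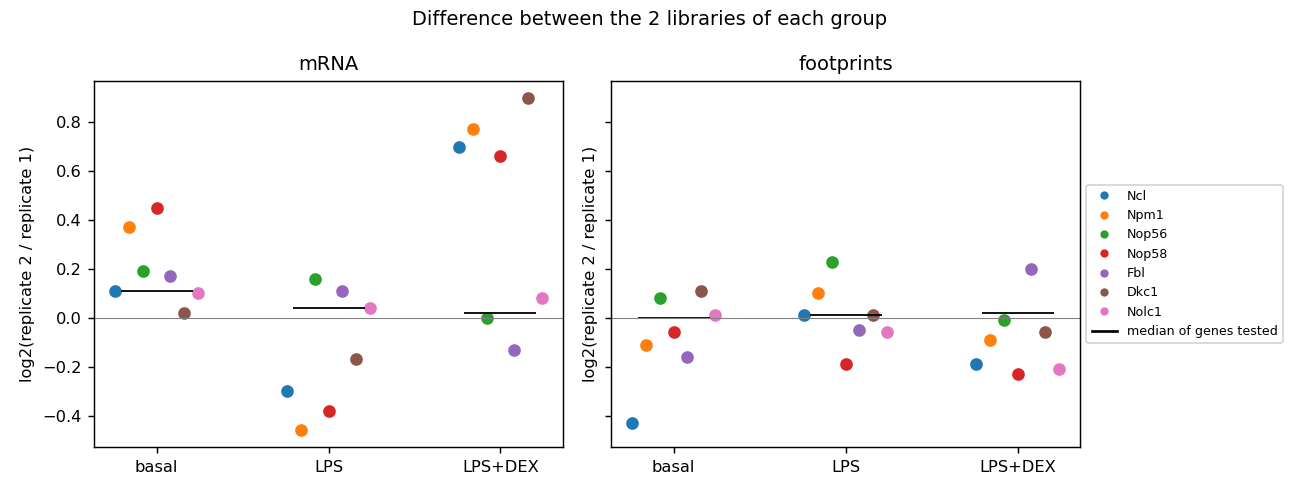
Log2 ratio of replicate 2 over replicate 1 (vertical axis) of the 7 genes in each group of mRNA libraries (left) and footprint libraries (right), with the median of the genes tested as a black bar. Dkc1, Npm1, Ncl and Nop58 lie at 0.66 to 0.9 in LPS+DEX mRNA, and Nop56, Fbl and Nolc1 at -0.13 to 0.08.

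Correlations over the 6 libraries of an assay split the members into the same sets in mRNA and other sets in footprints. The mRNA correlations draw on the same values in which the sets were seen, so they are not separate support for them. In mRNA Nop58, Ncl, Dkc1 and Npm1 had Pearson correlations of 0.946, 0.943, 0.899 and 0.847 with the mean of the other 6 members. Nop56 had 0.347, Nolc1 -0.596 and Fbl -0.674. In footprints Nop58 (0.891), Ncl (0.875), Dkc1 (0.849), Fbl (0.736) and Nolc1 (0.664) were alike, and Nop56 (0.194) and Npm1 (0.192) were not. Over 3498 candidates outside the gene lists, the mRNAs most like the members' mean included Scp2, Gtf2h1, Thoc7 and St13 (0.983 to 0.994). Over 3628 candidates in footprints they were Cx3cr1, Rpl39, Zfp710, Hnrnpa1 and Ndufa10 (0.982 to 0.991). The libraries share treatment groups and differ in depth, and the part of either in these correlations was not tested. The highest of so many correlations over 6 points are high by selection.

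The partner proteins of the same particles, singled out after their values were seen, are given for comparison. Snu13 (15.5K), which binds the kink turn of box C/D RNAs, measured 113 and 143 CPM in basal mRNA and 165 and 166 CPM in basal footprints, a log2 ratio of 0.38 ± 0.15 (adjusted p = 0.0492). Its ratio was -0.32 ± 0.15 after LPS and -0.17 ± 0.15 with LPS+DEX. The H/ACA subunits that bind with Dkc1 were lower than it in ratio in every treatment: in basal cells Nhp2 measured -0.46 ± 0.18, Gar1 -0.33 ± 0.16 and Nop10 0.05 ± 0.15, against 1.04 ± 0.21 for Dkc1. After LPS they measured -0.84, -0.02 and 0.2, against 1.78. Differences between genes were not tested.

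A wider list of 148 listed nucleolar and ribosome biogenesis genes places the members among their pathway. In footprints after LPS, 8 of the 148 rose and 5 fell, or 8.78% against 7.62% of all genes, a share near the background. The numbers were 3 and 2 with no filter. They were 12 and 3 without footprint basal replicate 1, 2 and 2 without basal replicate 2 or either LPS library, and 2 and 1 without either LPS+DEX library. The largest rises among those passing were of Esf1 (84 and 65.8 CPM to 133 and 140 CPM, 0.87 ± 0.16), a pre-rRNA processing factor, and Krr1 (59.5 and 53.9 CPM to 90.4 and 109 CPM, 0.8 ± 0.17), a factor of the small subunit processome. Cd3eap, an RNA polymerase I subunit, rose by 0.77 ± 0.2. The lower ones were led by Nob1, the endonuclease that forms the 3′ end of 18S rRNA, with 456 and 508 CPM in basal cells and 92.8 and 82.7 CPM after LPS (-2.45 ± 0.12, adjusted p = 2.23e-08). Nhp2 (-0.66 ± 0.15) and the RNA polymerase I and III subunit Polr1d (-0.57 ± 0.14) followed. By role, 0 of 15 snoRNP partners rose and 2 fell, 2 of 15 polymerase I genes rose and 1 fell, 3 of 52 small subunit genes rose and 1 fell, and 3 of 66 large subunit genes rose and 1 fell. The wider list's median was 0.06, under the members' 0.28.

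In mRNA after LPS, 12 of the 148 rose and 1 fell, or 8.78% against 10.7% of all genes, but with median-of-ratios scaling 1 rose and 5 fell. The numbers were 10 and 2 without mRNA basal replicate 1, 21 and 4 without basal replicate 2, 7 and 0 without either LPS+DEX library, and 0 and 0 without either LPS library. Rrn3, the initiation factor of RNA polymerase I, rose from 17.6 and 22.2 CPM to 52.6 and 48.3 CPM (1.31 ± 0.21, adjusted p = 0.0209), and its footprints were 107 and 88.8 CPM and then 88 and 107 CPM. Its TE therefore fell by 1.31 ± 0.26 (adjusted p = 0.00577). The rRNA processing factors Rrp12 (1.11 ± 0.21) and Pdcd11 (1.11 ± 0.25) rose in mRNA, and Fcf1 fell (-0.73 ± 0.15). In TE after LPS, 7 of the 148 rose and 17 fell, or 16.2% against 16.6% of all genes, a share near the background. The numbers turned to 16 and 3 with median-of-ratios scaling. They were 8 and 9 without mRNA basal replicate 1, 2 and 5 without mRNA LPS replicate 2, 3 and 7 or 1 and 9 without footprint basal replicate 1 or 2, 1 and 9 or 3 and 8 without footprint LPS replicate 1 or 2, and 4 and 10 without either footprint LPS+DEX library. Taf1d (1.32 ± 0.39), Esf1 (1.32 ± 0.37) and Llph (1.13 ± 0.27) led the rises, and Nob1 (-2.85 ± 0.19), Rrn3 and Rrp12 (-1.05 ± 0.29) the falls.

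With DEX added to LPS, 5 of the 148 rose and 7 fell in footprints, or 8.11% against 6.69% of all genes. The numbers were 2 and 4 with no filter, 4 and 1 or 1 and 1 without LPS replicate 1 or 2, and 0 and 2 or 0 and 0 without LPS+DEX replicate 1 or 2. Without either basal library they were 8 and 9 or 7 and 9. Krr1 footprints fell from 90.4 and 109 CPM to 51.4 and 44.2 CPM (-1.05 ± 0.17, adjusted p = 0.00196), under both basal values. The Krr1 rise after LPS rests on the same LPS libraries, so the rise and the fall are not independent. The snoRNP assembly factor Znhit3 (-0.89 ± 0.25) and Mak16 (-0.61 ± 0.16) fell as well. Footprints of Rrp7a (0.71 ± 0.17), Sdad1 (0.7 ± 0.14) and Eif6 rose. For Eif6, which keeps the free 60S subunit from joining, they went from 153 and 150 CPM to 235 and 223 CPM (0.59 ± 0.11, adjusted p = 0.00518). In mRNA and in TE limma passed 0 of the 148 in this comparison, and limma-voom 0 in both. At an unadjusted p under 0.05 there were 2 and 13, against 183 of 9277 and 597 of 9412 genes.

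Against basal cells, LPS+DEX raised 2 of the 148 in footprints, Rrs1 (0.61 ± 0.13) and Mdn1 (0.51 ± 0.12), and lowered 2, Nob1 (-2.26 ± 0.12) and Snu13 (-0.53 ± 0.13), or 2.7% against 4.63% of all genes. The numbers were 6 and 1 with median-of-ratios scaling, 0 and 1 with no filter or without either LPS+DEX library, and 5 and 1 without basal replicate 1. In mRNA 38 rose and 6 fell, or 29.7% against 22.7% of all genes, and 11 and 17 with median-of-ratios scaling. The numbers were 25 and 8 without mRNA basal replicate 1, 0 and 0 without mRNA LPS+DEX replicate 1, and 18 and 5 without replicate 2 of that group. Dhx37 (1.42 ± 0.3), Pdcd11 (1.4 ± 0.25) and Rrp12 (1.25 ± 0.21) led the rises, and Llph (-1.04 ± 0.23), Nol7 (-0.84 ± 0.17) and Utp11 (-0.72 ± 0.2) the falls. In TE 2 rose, Tma16 (1.11 ± 0.32) and Llph (0.95 ± 0.27), and 20 fell, or 14.9% of the list and 14.9% of all genes, and 11 and 2 with median-of-ratios scaling. The numbers were 4 and 14 without mRNA basal replicate 1, 0 and 8 or 10 and 21 without mRNA LPS+DEX replicate 1 or 2, 0 and 12 or 1 and 12 without footprint basal replicate 1 or 2, and 0 and 7 or 1 and 8 without footprint LPS+DEX replicate 1 or 2. Footprints exceeded mRNA in basal cells for 69 of the 148 and fell short for 12, or 54.7% in all, against 50.7% of all genes (33.4% higher and 17.3% lower). The numbers were 42 and 24 with median-of-ratios scaling and 52 and 11 without mRNA basal replicate 1. Gnl3l, a nucleolar GTPase, had the highest ratio of those that passed (3.04 ± 0.28, with 7.46 and 8.66 CPM in mRNA and 67.2 and 79.6 CPM in footprints), above Nob1 (2.7 ± 0.13) and Rrn3 (2.24 ± 0.18). Polr1d (-1.42 ± 0.14), Taf1d (-1.16 ± 0.27) and the U3 snoRNP protein Rrp9 (-1.16 ± 0.19) had the lowest. The wider list's median ratio was 0.4 in basal cells, 0.36 after LPS and 0.3 with LPS+DEX, against the members' 0.97, 1.63 and 1.44. With LPS 59 were higher and 23 lower (55.4%, against 51.9% of all genes), and with LPS+DEX 63 and 23 (58.1%, against 51%).

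As a share of all reads, the 7 members together took 0.431% and 0.506% of basal mRNA libraries, 0.406% and 0.354% with LPS, and 0.315% and 0.429% with LPS+DEX. Of footprints they took 1.08% and 0.915% in basal cells, 1.21% and 1.23% with LPS, and 1.15% and 1.04% with LPS+DEX. Both LPS footprint libraries lay above all 4 others. Ncl gave 5380 and 4000 of the 10779 and 9153 CPM summed in basal footprints and 6500 and 6550 of the 12082 and 12343 CPM after LPS, so most of the difference in the sum was Ncl.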

How the data were processed

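RAW264 poly(A) mRNA and ribosome footprints were made into Ion Torrent libraries, per the labels' protocols. The authors deposited 1 value per Ensembl gene and library, which from the values is CPM plus 1: after subtracting 1, 100% of values are whole multiples of 1 read, with a tolerance of 0.1 read. For aligner, build and annotation: not given in the sources used here. Symbols matched 9521 of 9621 identifiers.

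With R 4.3.3 and limma 3.58.1, limma-trend was run on log2(CPM + 1) of the whole table, over the 6 libraries of an assay or, for TE, all 12, with treatment group as the only factor. Genes needed 10 reads at the median depth in 2 libraries and 15 reads in total. Tests are two-sided. The scripts were tested on simulated data. Alternatives were median-of-ratios scaling, log2(CPM + 2), no filter, a replicate block, each library left out, and limma-voom on recovered reads, chosen after seeing the data in place of a planned count test that was not run.

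The members and gene lists were chosen with earlier results of these data known. Named genes are the members, per comparison up to 3 higher and 3 lower genes of the wider list with the largest changes among those that passed, did not overlap and had at least 10 reads in the higher group, and the 5 most like genes per assay with a mean of at least 50 CPM, 1 of which is not reported here.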

Additional observations from a re-analysis of the deposited data

How the results depend on the processing

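Of the 7 members, the number that passed in mRNA for LPS+DEX against basal was 2, and 1 with no filter or with the replicate block, and 0 to 2 with 1 library left out. In footprints it was 2 for LPS against basal (1 with no filter, 0 to 3 with 1 library left out), 1 for LPS+DEX against LPS (0 with no filter, 0 to 2 with 1 library left out) and 0 for LPS+DEX against basal (0 to 1). In TE it was 1 for LPS against basal (3 with median-of-ratios scaling, 2 with log2(CPM + 2), 0 to 3 with 1 library left out) and 0 for LPS+DEX against basal (3 with median-of-ratios scaling, 0 to 4). For footprints against mRNA it was 6, 6 and 7 in basal, LPS and LPS+DEX cells, and 5 to 7, 5 to 6 and 6 to 7 with 1 library left out. It stayed 0 in mRNA for LPS against basal and for mRNA and TE of LPS+DEX against LPS in all settings run. With median-of-ratios scaling the number was 3 in mRNA for LPS+DEX against basal, all lower, and 3 in footprints for LPS against basal, all higher. No member that passed changed sign in any setting run. A left-out library leaves 1 in its group, which is then assumed to vary like the others. The causes were not tested.

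No shared deviation of same-numbered libraries was seen: their deviations correlated at -0.16 to 0.1 over 15 pairs of groups, and 0 were over 0.1. Whether same-numbered libraries were prepared together cannot be told from these values. With the block the Npm1 mRNA change for LPS+DEX against basal had an adjusted p of 0.0505, and no other member's call changed.

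Over all genes, median-of-ratios scaling moved the balance of higher and lower genes. For mRNA it went from 838 and 156 to 184 and 317 (LPS against basal) and from 1714 and 392 to 720 and 826 (LPS+DEX against basal). For footprints it went from 292 and 382 to 378 and 279 and from 157 and 253 to 198 and 186. For TE it went from 290 and 1277 to 558 and 502 and from 252 and 1149 to 507 and 356, and for the basal ratio from 3148 and 1628 to 2361 and 2367. The 994 genes of mRNA LPS against basal became 501 with that scaling, 390 with the block, 464 by limma-voom and 7 to 2178 with 1 library left out, and the 2106 of LPS+DEX against basal 1 to 2876. The 0 of LPS+DEX against LPS became 0 to 5. The 674, 592 and 410 footprint calls became 281, 273 and 132 with no filter, and 307 to 727, 94 to 894 and 97 to 476 with 1 library left out, and the 410 became 619 by limma-voom. The 1567, 5 and 1401 TE calls became 736 to 2161, 0 to 51 and 546 to 1893 with 1 library left out. limma-voom gave 870 for the 1567 and 0 for the 5, log2(CPM + 2) gave 20 for the 5, and median-of-ratios scaling gave 863 for the 1401.

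The LPS footprint libraries were the shallowest, at 829415 and 821946 reads. The members' SEs for LPS against basal were 0.07 to 0.11 in footprints and 0.11 to 0.27 in mRNA. Each SE is pooled over all treatments of an assay, so it does not measure the spread of the LPS libraries alone. An effect of depth was not tested.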
